A study of Mus musculus with 50 samples.

Results

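Imprinted genes that control growth were described in single blood-forming cells of transplanted mice. The set was chosen by name and has 9 members, which are Grb10, Ndn, Peg3, Plagl1, Dlk1, Igf2, Igf2r, Gnas and Impact. Of these, 8 had a row among the 19224 genes of the count table, and Dlk1 was not analysed here. An imprinted gene is transcribed mainly or only from the copy inherited from 1 parent, and the silent copy is usually marked by DNA methylation. Many imprinted genes act on the insulin and insulin-like growth factor pathway, where the growth factor Igf2 promotes growth, the receptor Igf2r takes Igf2 up for degradation, and the adaptor Grb10 dampens signalling from the receptors at the cell surface. In haematopoietic stem cells (HSCs), several members of this network are known for high expression relative to their progeny and for links to quiescence. The counts used here do not separate the parental copies, so imprinting itself was not measured.

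In the study, a single HSC from a mouse with a GFP transgene under the β-actin promoter was placed together with competitor marrow from Ly5.2 mice into each irradiated Ly5.2 host. Cells were taken 1, 4 or 12 months later, and the labels list 10, 26 and 14 samples at these times, each of marrow alone or of marrow with spleen. After enrichment for c-Kit, cells were sorted singly by surface markers or GFP, so that host, competitor and donor cells cannot be told apart in the table. None of the cell names matched a sample title, so the members are not given by month or tissue, all cells were treated as 1 pooled sample, and no test was made.

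Of 4271 cells in 67 libraries, 4185 had at least 1000 genes counted and at most 10% mitochondrial counts, with a median of 122013 counts (1579 to 709960) and 4186 genes. Total counts ranged from 1665151 to 26184494 per library. A cell name joins a library and a well barcode, and 93 of the 95 barcode names recur in 2 or more libraries, but 0 cells shared an identical set of counts. A class marker was called on in a cell at 20 CPM (counts scaled to a common total) or more. In a shallow cell a single count passes this limit, so the calls depend in part on depth. The lineage-marker class held 1465 cells with at least 4 genes on from 1 of 12 lineage lists. The cycling class held 269 further cells with at least 12 of 36 cell cycle genes on, of which 158 had Procr on. Of the rest, 1919 cells with Procr on were Procr+ non-cycling cells, and 532 were Procr-low. Procr encodes the HSC surface protein EPCR. None of the members was a class marker.

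The classes matched their labels only in part. Procr was at 81.7 CPM in cycling cells and 353 CPM in Procr+ non-cycling cells. In the lineage-marker class 791 of 1465 cells had Procr on, and 340 of these were called by the neutrophil list and 236 by the primary-granule list. The granule genes Lyz2 and Prtn3 were on in 96.8% and 90.0% of all kept cells, while S100a8, S100a9 and Ngp of the neutrophil list were on in 40.6%, 32.5% and 20.0%. Lineage-marker cells were therefore split into 674 Procr-low cells, with Procr at 2.66 CPM, and 791 Procr-on cells, with Procr at 263 CPM. In all, 281 lineage-marker cells also had 12 cell cycle genes on. Near the limits of the classes stood 52 cells with 10 or 11 and 37 with 12 or 13 cell cycle genes on, 646 cells with 3 and 412 with 4 lineage genes on, and 215 cells with a Procr level above 0 but under 20 CPM. Median depth was 196718 counts in cycling, 89937 in Procr-low lineage-marker, 119806 in Procr-on lineage-marker and 125739 in Procr+ non-cycling cells.

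The members fell into a detected and a rare group. Grb10 and Impact were counted in 1724 and 2199 of 4185 cells, Ndn in 564, Igf2r in 375 and Gnas in 216. Peg3, Plagl1 and Igf2 were counted in 40, 28 and 7 cells. The detected genes did not share 1 pattern: Grb10, Ndn and Impact were highest in Procr+ non-cycling cells, and Igf2r and Gnas were highest in Procr-low lineage-marker cells. All levels below are CPM of the summed counts of a class, and ratios are log2 values of CPM plus a pseudocount of 1. The 95% intervals of levels (exact Poisson) and of shares of cells (exact binomial) cover counting error only, and copies made by amplification can make them too narrow. Levels are compared between classes for 1 gene and never between genes.

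**Figure D1:**
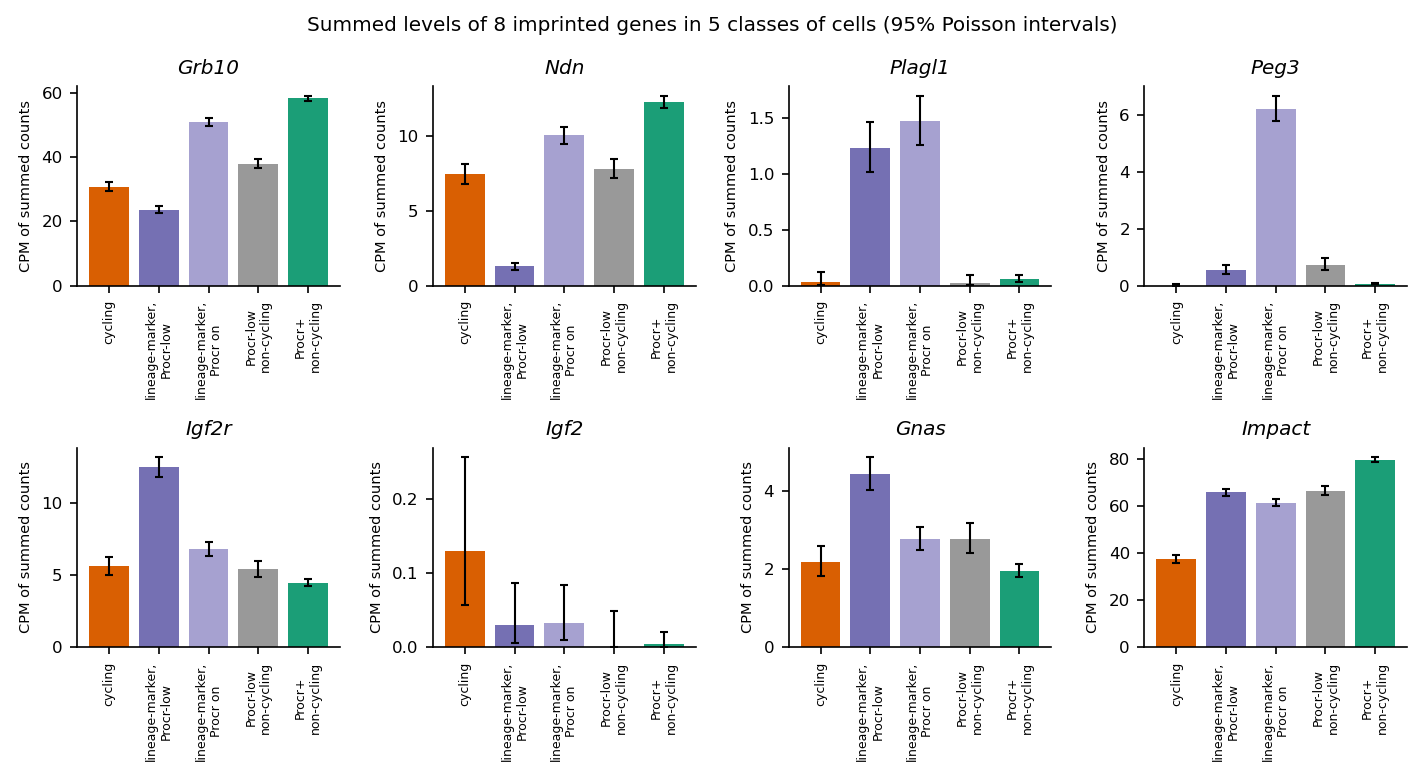
Summed level in CPM (vertical axis, linear, a scale of its own for each gene) of the 8 members in cycling cells, Procr-low and Procr-on lineage-marker cells, Procr-low non-cycling cells and Procr+ non-cycling cells. Bars are levels and error bars exact 95% Poisson intervals. Grb10, Ndn and Impact stand highest at the right, in Procr+ non-cycling cells, at 58.4, 12.3 and 79.7 CPM, while Igf2r stands highest in Procr-low lineage-marker cells at 12.5 CPM.

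The annotated start regions of the members differ in their density of CG pairs, the site of the methylation that marks imprinted copies. The RefSeq promoters of GRCm38.p6, from 250 bases before to 50 bases after a start site, covered 15 start sites of 8 of the 9 members, Dlk1 included and Impact not. CG pairs were more frequent than the median of 7 at 13 of these sites, against 48.65% of all 32851 promoters. The 15 sites are not separate, because Gnas and Igf2 each gave 4 of them. The Gnas sites at chr2:174327499-174327798 and chr2:174327518-174327817 overlap in most of their bases. The promoters shown are given 5′ to 3′ with CG pairs in capitals, those of Grb10 and Ndn, which were lower outside the Procr+ cells, and of Peg3 and Plagl1, which were counted together in some cells. They are Grb10 at chr11:12037371-12037670 (minus strand, 45 CG pairs), Ndn at chr7:62348027-62348326 (plus strand, 11), Peg3 at chr7:6730370-6730669 (minus strand, 13) and Plagl1 at chr10:13090582-13090881 (plus strand, 26).
Grb10: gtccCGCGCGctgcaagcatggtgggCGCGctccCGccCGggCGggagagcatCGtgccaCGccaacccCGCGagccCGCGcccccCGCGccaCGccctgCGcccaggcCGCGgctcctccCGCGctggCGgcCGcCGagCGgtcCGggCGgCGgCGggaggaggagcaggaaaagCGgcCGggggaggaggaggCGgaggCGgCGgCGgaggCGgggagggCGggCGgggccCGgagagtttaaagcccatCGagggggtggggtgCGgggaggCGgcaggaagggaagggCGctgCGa
Ndn: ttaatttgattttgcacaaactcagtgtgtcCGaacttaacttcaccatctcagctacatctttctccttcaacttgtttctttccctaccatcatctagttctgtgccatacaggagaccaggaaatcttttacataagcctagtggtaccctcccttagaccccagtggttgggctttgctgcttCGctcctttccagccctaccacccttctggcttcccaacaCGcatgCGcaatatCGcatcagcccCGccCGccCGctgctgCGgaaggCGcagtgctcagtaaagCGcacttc
Peg3: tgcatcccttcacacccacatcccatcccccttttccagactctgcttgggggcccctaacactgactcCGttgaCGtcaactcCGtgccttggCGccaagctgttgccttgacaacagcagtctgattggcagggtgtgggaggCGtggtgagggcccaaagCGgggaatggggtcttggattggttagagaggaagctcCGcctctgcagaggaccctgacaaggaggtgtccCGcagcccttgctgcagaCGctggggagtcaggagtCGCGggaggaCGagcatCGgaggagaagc
Plagl1: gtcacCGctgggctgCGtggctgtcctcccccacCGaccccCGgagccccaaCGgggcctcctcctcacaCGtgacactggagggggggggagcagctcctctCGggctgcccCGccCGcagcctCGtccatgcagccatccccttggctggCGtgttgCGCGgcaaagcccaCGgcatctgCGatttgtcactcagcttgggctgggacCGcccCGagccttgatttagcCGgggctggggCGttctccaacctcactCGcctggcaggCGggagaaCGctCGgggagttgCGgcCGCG
A search for the letters GGGGCCCC, which read the same on both strands, found them at the Peg3 site alone among the 15, and in 1.08% of all promoters. No methylation was measured. Grb10 has a further start site with 9 CG pairs, at chr11:12027922-12028221, and counts of transcript 3′ ends do not tell which start a transcript used.

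Grb10 encodes an adaptor protein that binds the insulin and IGF1 receptors and limits their signalling. It was lower in cycling and in Procr-low lineage-marker cells than in Procr+ non-cycling cells. The gene lies on chromosome 11 at 11930508 to 12038683 of GRCm38, on the minus strand. Its level was 30.9 CPM (29.5 to 32.3) in cycling cells, against 58.4 CPM (57.5 to 59.3) in Procr+ non-cycling cells, a log2 ratio of -0.90. This is just short of 2-fold, which 9.45% of the 7459 genes at 16 CPM or more in either class passed, and only Grb10 and Impact of the members reached 16 CPM. Cycling cells with Procr on were similar, at 33.4 CPM (31.4 to 35.4) and a ratio of -0.79, so the difference was also present among cells chosen for Procr. In that comparison 8.88% of genes passed 2-fold.

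In the 24 libraries that held 5 or more cells of each class, Grb10 ranged from 0 to 143 CPM in cycling cells (median 37.6) and from 15.5 to 120 CPM in Procr+ non-cycling cells (median 57.2). The ranges overlapped, and Grb10 was lower in cycling cells in 17 of the 24 libraries. With Procr on, it was lower in 5 of 6. The share of cells with a count, after every cell was thinned to 20000 counts, was 24.0% (19.0 to 29.7) in cycling and 31.7% (29.5 to 33.9) in Procr+ non-cycling cells. Among cells with a count before thinning, the median level was 54.8 CPM in cycling and 62.1 CPM in Procr+ non-cycling cells. These medians cannot be separated from the greater depth of cycling cells.

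**Figure D2:**
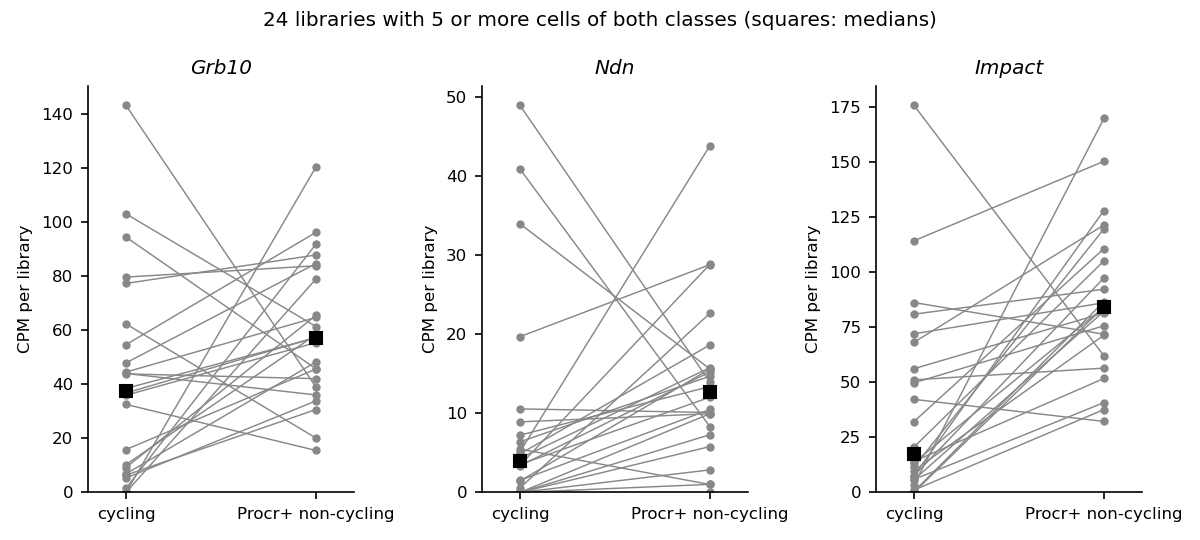
CPM per library (vertical axis, linear) of Grb10, Ndn and Impact in cycling cells (left) and Procr+ non-cycling cells (right) of the same library, for the 24 libraries with at least 5 cells of both. Each line is a library and squares are medians over libraries. Impact is lower in cycling cells in 21 of 24 libraries, the most of the 3 genes, and the libraries of both classes overlap for all 3 genes.

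Among lineage-marker cells the Grb10 level followed Procr. It was 23.7 CPM (22.8 to 24.7) in Procr-low and 51.0 CPM (49.7 to 52.3) in Procr-on lineage-marker cells. The ratio of Procr-low lineage-marker cells to Procr+ non-cycling cells was -1.26, past 2-fold as for 16.9% of the 8040 genes tested, and Grb10 was lower in 11 of 19 libraries. For Procr-on lineage-marker cells it was -0.19, where 3.52% of genes passed 2-fold, and for the whole class it was -0.58, where 7.24% did. Procr-low non-cycling cells, with no lineage or cell cycle call, stood between at 38.0 CPM (36.7 to 39.5).

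Single lineages differed in Grb10 more than the classes did. Among Procr-low cells it was 51.3 CPM (46.9 to 55.9) in the 40 erythroid-marker cells, 38.4 CPM (34.7 to 42.3) in the 49 megakaryocyte-marker cells and 36.1 CPM (32.1 to 40.5) in the 45 macrophage-marker cells. It was 19.3 CPM (17.6 to 21.2) in primary-granule and 18.8 CPM (17.3 to 20.4) in neutrophil-marker cells, whose intervals overlap. The macrophage-marker level came from 7 of 45 cells. After thinning, Grb10 was counted in 14.6% (5.57 to 29.2) of macrophage-marker and 14.5% (9.86 to 20.3) of neutrophil-marker cells, so these shares did not differ. A single cell held 31.1% of the erythroid, 22.9% of the megakaryocyte and 27.3% of the macrophage counts. The lymphoid lists were lowest, with 14.5 CPM in B-lineage, 10.1 CPM in T-lineage and 5.36 CPM (3.81 to 7.33) in plasma-marker cells. In the B-lineage list 1 cell held 87.8% of the Grb10 counts, in the plasma list 1 cell held 82.1%, and in the T-lineage list 1 cell held 58.3%, so each of these lymphoid levels rests mostly on a single cell. Of the 40 erythroid-marker cells, 30 also had 12 cell cycle genes on.

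**Figure D3:**
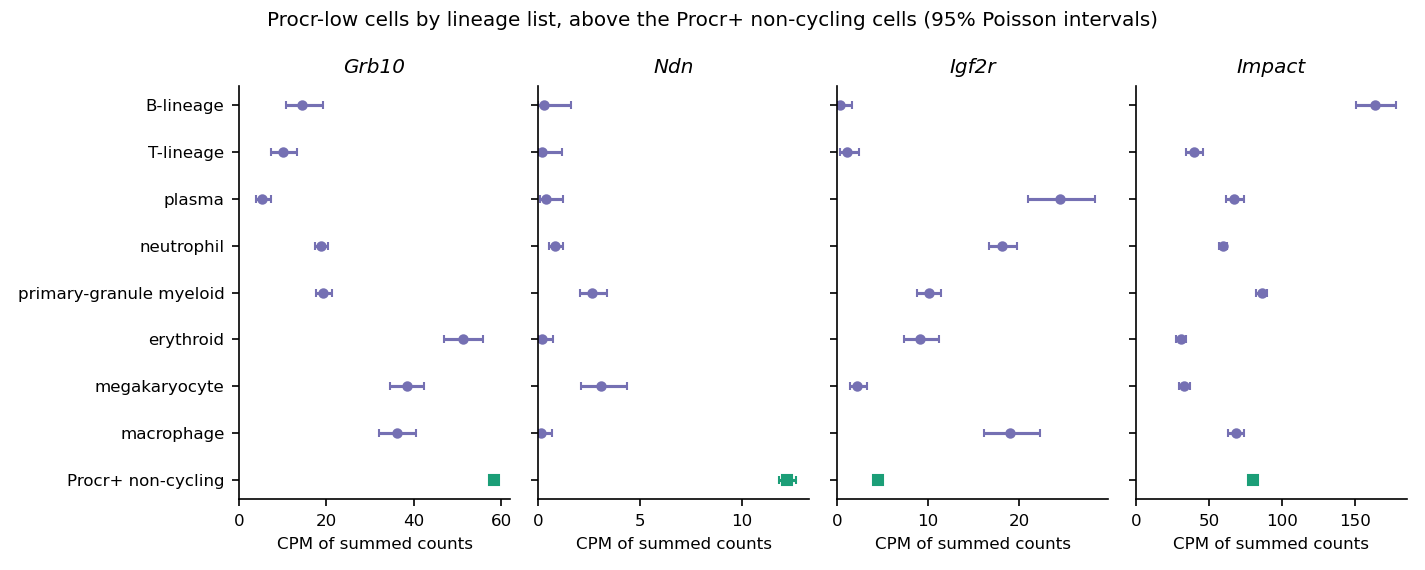
Summed level in CPM (horizontal axis, linear) of Grb10, Ndn, Igf2r and Impact in Procr-low lineage-marker cells of the 8 lineage lists with 20 or more such cells (circles), with the Procr+ non-cycling cells below them (squares). Error bars are exact 95% Poisson intervals. Ndn is at 3.09 CPM or less in every lineage against 12.3 CPM in Procr+ non-cycling cells, and Impact in B-lineage cells is at 164 CPM.

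Ndn encodes necdin, a MAGE family protein that restrains proliferation and has been studied in HSC quiescence. Its summed level was low in cells with lineage markers and no Procr. The gene lies on chromosome 7 at 62346569 to 62350262, on the plus strand. Its level was 1.29 CPM (1.07 to 1.53) in Procr-low lineage-marker cells, against 12.3 CPM (11.8 to 12.7) in Procr+ non-cycling cells, a log2 ratio of -2.54. After thinning, a count was present in 1.25% (0.505 to 2.56) of 559 Procr-low lineage-marker cells and in 10.0% (8.68 to 11.5) of 1804 Procr+ non-cycling cells. In summed level and thinned share, Procr-on lineage-marker cells stood near the Procr+ non-cycling cells, at 10.0 CPM (9.47 to 10.6) and 8.66% (6.73 to 10.9). By library they were further apart. Ndn was lower in Procr-on lineage-marker cells in 17 and higher in 6 of 24 libraries. The library medians were 1.19 CPM there and 10.2 CPM in Procr+ non-cycling cells, with 9 and 2 libraries at 0.

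The low level of Ndn ran through all 8 lineage lists. It was highest in megakaryocyte-marker cells at 3.09 CPM (2.12 to 4.37) and in primary-granule cells at 2.66 CPM (2.04 to 3.40), where 1 cell held 61.9% of the counts. The other 6 lists held 1 to 26 counts each, at 0.123 to 0.841 CPM. In particular, erythroid-marker cells had 2 Ndn counts among 40 cells, although their Grb10 level was close to that of Procr+ non-cycling cells. Ndn was lower in Procr-low lineage-marker cells in 15 of 19 libraries and at 0 there in 10, against 3 libraries at 0 among the Procr+ non-cycling cells. The share of cells with an Ndn count differed less for the megakaryocyte list. A count was present in 8 of its 49 cells (16.3%), against 16.7% of Procr+ non-cycling cells. After thinning it was present in 6.67% (1.40 to 18.3) of 45 such cells, against 10.0% (8.68 to 11.5) of 1804 Procr+ non-cycling cells.

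In cycling cells the Ndn level was 7.42 CPM (6.76 to 8.14), against 12.3 CPM in Procr+ non-cycling cells, a ratio of -0.65. It was lower in 18 of 24 libraries, with a median of 3.92 CPM (0 to 48.9) in cycling and 12.7 CPM (0 to 43.8) in Procr+ non-cycling cells. The difference was smaller where Procr was on: 9.76 CPM (8.72 to 10.9) in Procr+ cycling cells, a ratio of -0.30, lower in 2 and higher in 4 of 6 libraries. The thinned share there was 11.0% (6.56 to 17.1), against 10.0% in Procr+ non-cycling cells. A single cell held 27.1% of the Ndn counts of the Procr+ cycling cells, and without it the ratio was -0.69. Procr-low cycling cells had 4.65 CPM (3.88 to 5.52).

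Impact encodes a regulator of translation that competes with the kinase GCN2 for its activator GCN1. It was the member with the largest difference in cycling cells. The gene lies on chromosome 18 at 12955852 to 12992950, on the plus strand. Its level was 37.4 CPM (35.9 to 39.0) in cycling cells and 79.7 CPM (78.6 to 80.8) in Procr+ non-cycling cells, a log2 ratio of -1.07, the only member past 2-fold in that comparison. Impact was lower in 21 of 24 libraries, with a median of 17.3 CPM (0 to 176) in cycling and 84.1 CPM (32.2 to 170) in Procr+ non-cycling cells. Without the library with most counts the ratio was -0.95, under 2-fold.

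Both Procr+ and Procr-low cycling cells had low Impact, at 41.0 CPM (38.8 to 43.2) and 33.2 CPM (31.1 to 35.4). The ratio of Procr+ cycling cells was -0.94, but only 3 of 6 libraries were lower. After thinning, Impact was counted in 26.3% (21.1 to 32.1) of cycling and 37.8% (35.6 to 40.1) of Procr+ non-cycling cells, so the share was lower. Before thinning, cells with a count had a median of 42.3 CPM in cycling and 70.4 CPM in Procr+ non-cycling cells. Cycling cells were deeper, so 1 count stands for a lower CPM there, and these medians cannot be separated from depth.

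In lineage-marker cells the summed Impact level differed much less, but the library medians differed more than the sums. They were 46.9 CPM in Procr-low lineage-marker cells and 87.1 CPM in Procr+ non-cycling cells of 19 libraries. For Procr-on lineage-marker cells they were 46.0 CPM, against 88.9 CPM in Procr+ non-cycling cells of 24 libraries. The summed level was 65.8 CPM (64.2 to 67.4) in Procr-low and 61.4 CPM (60.0 to 62.8) in Procr-on lineage-marker cells. The ratios to Procr+ non-cycling cells were -0.27 and -0.37, and Impact was lower in 15 of 19 and 17 of 24 libraries. The lineages went different ways in summed level. B-lineage cells had 164 CPM (150 to 178) and primary-granule cells 85.8 CPM (82.1 to 89.6), both above Procr+ non-cycling cells, while erythroid-marker cells had 30.4 CPM (27.1 to 34.0) and megakaryocyte-marker cells 33.0 CPM (29.6 to 36.7). A single cell held 48.9% of the erythroid and 22.7% of the B-lineage Impact counts. After thinning, 41.0% (25.6 to 57.9) of B-lineage cells and 30.8% (17.0 to 47.6) of erythroid-marker cells had a count. Both intervals hold the 37.8% of Procr+ non-cycling cells, so the shares do not show these differences. The 51 B-lineage cells were shallow, at 38579 counts in the median, and 1 library held 22 of them.

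Igf2r encodes the cation-independent mannose 6-phosphate receptor, which carries lysosomal enzymes and clears Igf2. It was higher in lineage-marker cells. The gene lies on chromosome 17 at 12682406 to 12769664, on the minus strand, and the antisense transcript Airn overlaps it without sharing exon bases. Its level was 12.5 CPM (11.8 to 13.2) in Procr-low and 6.78 CPM (6.33 to 7.26) in Procr-on lineage-marker cells, against 4.48 CPM (4.23 to 4.74) in Procr+ non-cycling cells, log2 ratios of 1.30 and 0.51. The share of thinned cells with a count was 7.16% (5.16 to 9.62), 5.01% (3.55 to 6.84) and 3.88% (3.04 to 4.88) in the same order. Libraries did not share this direction: Igf2r was higher in Procr-low lineage-marker cells in 7 and lower in 10 of 19 libraries, and at 0 there in 10.

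The Igf2r counts of the lineages came from few cells. Plasma-marker cells had 24.5 CPM (21.0 to 28.3) from 11 of 63 cells, and neutrophil-marker cells had 18.1 CPM (16.7 to 19.7) from 34 of 249 cells. Macrophage-marker cells had 19.0 CPM, of which 1 cell held 74.0%. Megakaryocyte-marker cells had 2.22 CPM and B-lineage cells 0.295 CPM from a single count. In cycling cells Igf2r was at 5.61 CPM (5.03 to 6.24), a ratio of 0.27 to Procr+ non-cycling cells. It was lower in 13 and higher in 7 of 24 libraries, and without the 8 libraries whose Procr+ non-cycling cells carried high erythroid and neutrophil marker counts the ratio was -0.56.

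Gnas encodes the stimulatory G protein alpha subunit, which links hormone receptors to cyclic AMP. The locus on chromosome 2, at 174284320 to 174346744 on the plus strand, makes several overlapping transcripts. Its level was 4.45 CPM (4.05 to 4.89) in Procr-low lineage-marker cells and 2.19 CPM (1.83 to 2.59) in cycling cells, against 1.97 CPM (1.80 to 2.14) in Procr+ non-cycling cells. In Procr+ cycling cells it was 0.570 CPM (0.343 to 0.891) and in Procr-low cycling cells 4.11 CPM (3.39 to 4.93), with 19 and 115 counts. More libraries went against the summed levels than with them. Gnas was lower in 9 and higher in 5 of 19 libraries in Procr-low lineage-marker cells, with 5 at 0 in both classes. It was lower in 16 and higher in 5 of 24 libraries in cycling cells. Its library median was 0 CPM in cycling cells, with 1 library at 54.6 CPM, against 1.58 CPM in Procr+ non-cycling cells. T-lineage cells had 14.7 CPM and plasma-marker cells 11.5 CPM, with 58.6% and 70.2% of the counts in 1 cell. All of these levels are uncertain, because the gene Gm20721 on the other strand shares 1469 exon bases with Gnas. The 5′ end of Gm20721 lies 32 bases before the Gnas 3′ end. The sources used here do not say how reads on shared bases were counted. Gm20721 itself was at 0.0188 CPM in Procr+ non-cycling cells.

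Peg3, a zinc finger gene, and Plagl1, which encodes the zinc finger growth inhibitor Zac1, were rare and tied to few cells. Peg3 lies on chromosome 7 at 6703892 to 6730431 on the minus strand and Plagl1 on chromosome 10 at 13060504 to 13131694 on the plus strand. Peg3 had 0 counts in cycling cells, where 3 counts would be 0.0489 CPM, and 0.558 CPM (0.421 to 0.724) in Procr-low and 6.21 CPM (5.78 to 6.67) in Procr-on lineage-marker cells, against 0.0676 CPM (0.0401 to 0.107) in Procr+ non-cycling cells. Plagl1 was at 0.0326 CPM in cycling, 1.23 CPM (1.02 to 1.46) in Procr-low lineage-marker, 1.47 CPM (1.26 to 1.70) in Procr-on lineage-marker and 0.0564 CPM (0.0316 to 0.0930) in Procr+ non-cycling cells. These levels describe single cells. Of 884 Peg3 counts 72.1% were in 1 cell and 90.4% in 5 cells, and of 320 Plagl1 counts 88.8% were in 5 cells.

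The cell with most Peg3 had 637 Peg3 counts, 97 Plagl1 counts and 157 Grb10 counts among 357501, no Ndn count, Procr on, and the collagen genes Col1a1, Col1a2 and Col3a1 on with Fabp4. The log2 ratio of Peg3 in the lineage-marker class was 2.12 with it and 0.74 without it. Peg3 and Plagl1 were found together in 6 cells, of 40 with Peg3 and 28 with Plagl1. The library of the cell with most Peg3 held 14 of the 40 cells, 11 of them with a single count, and 1 other library held 9. Of 4185 cells, 98 had at least 2 of 10 stromal or endothelial genes on. Peg3 was counted in 10.2% (5.00 to 18.0) of these 98 cells and in 0.734% (0.496 to 1.05) of the other 4087. Plagl1 was counted in 7.14% (2.92 to 14.2) of the 98 and 0.514% (0.318 to 0.784) of the others. Both shares were higher in the cells with stromal genes on, whose median depth was 135700 counts, against 121930 in the others. Grb10 was counted in 46.9% (36.8 to 57.3) of the 98 and 41.1% (39.5 to 42.6) of the others. Ndn was counted in 13.3% (7.26 to 21.6) of the 98 and 13.5% (12.4 to 14.6) of the others. Igf2r was counted in 20.4% (12.9 to 29.7) of the 98 and 8.69% (7.84 to 9.59) of the others. Igf2 was counted in 3.06% (0.636 to 8.69) of the 98 and 0.0979% (0.0267 to 0.25) of the others. The summed level of the 10 stromal or endothelial genes, all of them detected in each class, was 21.7 CPM in cycling, 46.2 CPM in Procr-low lineage-marker, 83.6 CPM in Procr-on lineage-marker and 32.0 CPM in Procr+ non-cycling cells, and its part in the levels of Peg3 and Plagl1 was not tested. This split of cells was chosen after the cells with most Peg3 had been seen. Some of those cells are among the 98, so the shares cannot test a link between Peg3 and stromal genes.

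**Figure D4:**
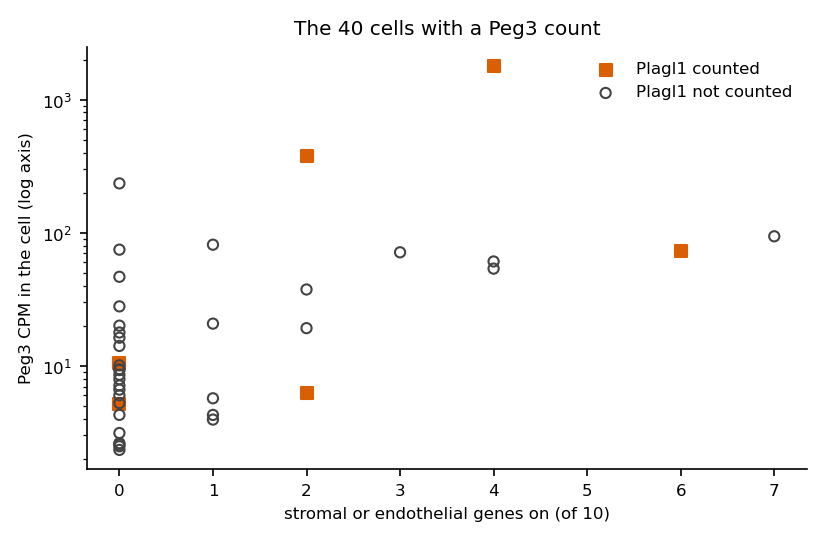
The 40 cells with a Peg3 count, by the number of 10 stromal or endothelial genes on (horizontal axis) and Peg3 CPM in the cell (vertical axis, log scale). Squares are cells that also had a Plagl1 count and circles are cells that had none. Of the 40 cells, 10 have 2 or more such genes on, among them the cell with most Peg3, at 1782 CPM.

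Igf2, the growth factor gene, was all but undetected. It lies on chromosome 7 at 142650766 to 142666816 on the minus strand, within an annotated readthrough gene, Gm49394, that shares 3596 exon bases with it and was not analysed here. In all 4185 cells it had 16 counts in 7 cells, of which 8 counts were in 1 Procr-low cycling cell. In Procr+ non-cycling cells 1 count was found among 1919 cells.

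Procr+ non-cycling cells were not uniform in the members. Over the 40 libraries with at least 20 such cells, Grb10 ranged from 20.1 to 109 CPM (median 57.8), Ndn from 0 to 44.9 (10.4), Impact from 21.8 to 202 (84.1), Igf2r from 0 to 22.6 (3.84) and Gnas from 0 to 12.6 (1.58). The members did not rise and fall together. Over these libraries Pearson's r, a description across libraries of unequal depth, was -0.26 between Grb10 and Impact, 0.12 between Grb10 and Ndn and -0.02 between Ndn and Impact. After thinning, Ndn was counted in 9.98% of cells with a Grb10 count and in 10.1% of cells without one. The genes most like Grb10 over the 40 libraries, among 6946 genes, were Nsun5 (r = 0.53), Zfp958 (0.50) and Abl2 (0.49). Those most like Ndn were Dhdds (0.59), Impdh2 (0.56) and Abhd12 (0.56), and those most like Impact were Aplp2 (0.63), Klhl24 (0.61) and Mysm1 (0.59).

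Marker gates inside this class separated the members further. The 467 cells with the progenitor genes Cd34 and Flt3 on had Grb10 at 47.7 CPM (46.1 to 49.4), against 62.1 CPM (61.0 to 63.2) in the other 1452, and lower in 29 of 41 libraries. Impact was at 61.3 CPM (59.5 to 63.2) in them and 86.1 CPM (84.9 to 87.5) in the others, lower in 23 of 41 libraries. Ndn was at 11.7 CPM (10.9 to 12.5) in them and 12.5 CPM (12.0 to 13.0) in the others, lower in 30 and higher in 10 of 41 libraries. The 101 cells with the HSC marker gene Slamf1 on and with Cd34 and Vwf off went the other way in the summed levels of these 3 genes. They had Grb10 at 88.7 CPM (83.6 to 94.0), against 56.9 CPM (55.9 to 57.8) in the other 1818. Impact was at 124 CPM (118 to 130) against 77.5 CPM (76.4 to 78.6), and Ndn at 20.1 CPM (17.7 to 22.7) against 11.9 CPM (11.4 to 12.3). Only 6 libraries had enough of both, and for Grb10, Impact and Ndn 4, 4 and 3 of them were higher. Igf2r was lower in the 101 cells, at 2.68 CPM (1.86 to 3.75) against 4.57 CPM (4.31 to 4.84), and in 6 of 6 libraries. Gnas was at 0.789 CPM (0.378 to 1.45) against 2.02 CPM (1.85 to 2.21), lower in 4 and higher in 1 of 6 libraries. In the 225 cells with the platelet-lineage gene Vwf on, Ndn was at 19.0 CPM (17.5 to 20.6) against 11.4 CPM (10.9 to 11.8) in the other 1694, higher in 13 of 20 libraries, and Grb10 was at 58.9 CPM (56.3 to 61.7) against 58.3 CPM (57.3 to 59.3).

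Other imprinted genes gave a setting for the members. Of 50 listed genes, 38 were in the table. In cycling against Procr+ non-cycling cells 11 of them reached 16 CPM and 0 passed 2-fold, beside 9.45% of all genes. These 11 genes are too few to set against that share. Their median ratio was -0.21, against -0.05 over all genes. The largest ratios were 0.88 for Slc22a3, an organic cation transporter gene, at 32.3 CPM in cycling and 17.0 CPM in Procr+ non-cycling cells, and 0.88 for Tssc4, at 145 CPM in cycling and 78.3 CPM in Procr+ non-cycling cells. Both were higher in 17 of 24 libraries. Blcap had -0.61. In Procr+ cycling cells 1 of 11, Tssc4 at 1.07, passed 2-fold and was higher in 6 of 6 libraries, beside 8.88% of all genes past 2-fold.

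In Procr-low lineage-marker cells 12 other imprinted genes reached 16 CPM, with a median ratio of -0.49, against -0.003 over all genes. Of these, 3 were lower and 1 was higher by 2-fold or more. Over all 8040 genes tested, 396 were lower and 966 higher by that much, 16.9% together. Sgce, which encodes epsilon-sarcoglycan, was at 12.7 CPM in Procr-low lineage-marker cells and 42.2 CPM in Procr+ non-cycling cells (-1.65), Slc22a18 at 7.51 CPM in the first class and 18.6 CPM in the other (-1.21) and Ppp1r9a at 12.7 CPM and 29.8 CPM in the same order (-1.17). They were lower in 13, 14 and 13 of 19 libraries. The 1 gene higher by 2-fold was Inpp5f, an inositol phosphatase gene, at 26.8 CPM in Procr-low lineage-marker cells and 12.2 CPM in Procr+ non-cycling cells, and higher in 11 of 19 libraries. In the whole lineage-marker class 1 of 13 passed 2-fold, beside 7.24% of all genes, and in its Procr-on cells 0 of 13, beside 3.52%.

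**Figure D5:**
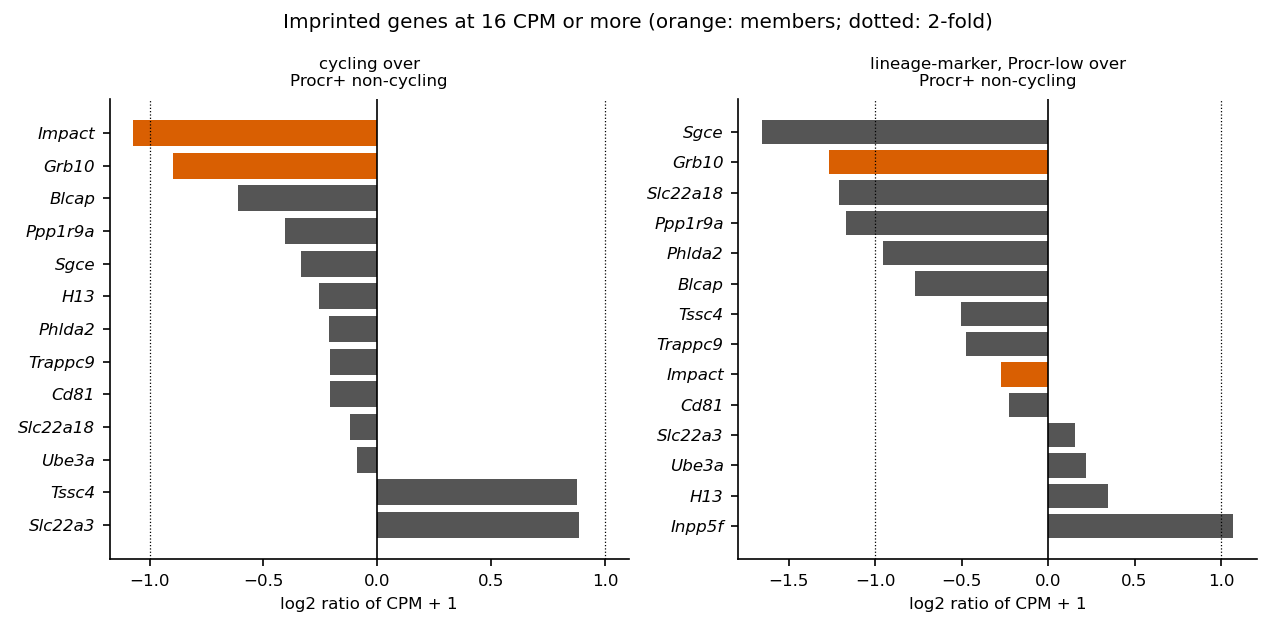
Log2 ratio of CPM + 1 (horizontal axis) of cycling cells (left panel) and Procr-low lineage-marker cells (right panel) over Procr+ non-cycling cells for imprinted genes at 16 CPM or more in either class. Orange bars are the members, grey bars the listed other imprinted genes, and dotted lines mark 2-fold. Impact and Grb10 have the lowest ratios of the left panel, at -1.07 and -0.90, and Sgce of the right one, at -1.65.

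Few of the listed genes that work with the members reached 16 CPM in cycling or Procr+ non-cycling cells, too few to set against the 9.45% of all genes past 2-fold. Of 14 listed genes of the insulin-like growth factor axis, 4 reached 16 CPM and 0 passed 2-fold. The insulin receptor substrate gene Irs2 was at 13.0 CPM in cycling and 25.8 CPM in Procr+ non-cycling cells (-0.94, lower in 21 of 24 libraries), and the receptor gene Igf1r was at 61.2 CPM in cycling and 82.5 CPM in Procr+ non-cycling cells (-0.42, lower in 16 of 24). In Procr-low lineage-marker cells 1 of 5 passed 2-fold, the growth factor gene Igf1 at 46.6 CPM there and 7.04 CPM in Procr+ non-cycling cells (2.57), yet it was lower in 10 and higher in 6 of 19 libraries. Of the partners of Impact, the GCN2 gene Eif2ak4 was at 26.9 CPM in cycling and 22.6 CPM in Procr+ non-cycling cells (0.24), though lower in 16 of 24 libraries, and its effector gene Atf4 at 244 CPM in cycling and 239 CPM in Procr+ non-cycling cells (0.03, lower in 13 of 24), and 0 of 3 passed 2-fold. Of 12 cyclic AMP pathway genes beside Gnas, 0 of the 7 at 16 CPM passed 2-fold in cycling cells. In Procr-low lineage-marker cells 1 of 9 did, the protein kinase A subunit gene Prkar2a at 21.6 CPM, against 8.39 CPM in Procr+ non-cycling cells, beside 16.9% of all genes past 2-fold. Prkar2a was lower in 10 and higher in 8 of 19 libraries.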

How the data were processed

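The deposited table gives unnormalized whole-number counts of each gene in each cell. Per the submitters' processing notes, the authors used Trimmomatic 0.36, HISAT2 2.1.0, HTSeq 0.9.1 and build GRCm38. Per the labels' protocols, a modified Smart-seq2 method enriched transcript 3′ ends. The sources used here do not say if counts are of reads or molecules. Columns of 17 cells were not used. The members, lists and class rules were chosen with earlier results of these data known.

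From the counts, CPM was computed on sums over a class, with Python 3.11.15, numpy 2.4.6, scipy 1.17.1 and pandas 2.3.3. Genes at 16 CPM or more in either class were set against a 2-fold limit. Cells are not replicates and all formed 1 pooled sample, so the planned edgeR quasi-likelihood test by month was not run, and edgeR 4.0.16 served only for a scaling alternative. Shares were compared after thinning cells to 20000 counts, which left out 359 cells. Libraries that held 5 or more cells of each class were used to count direction, and are not replicates of a group. No doublet caller was run, because the cells were sorted singly. The ratio step was tested on simulated data. Of the 19224 symbols, 19071 matched the GENCODE M21 annotation, which gave positions. The named genes are the members, the genes of the lists at 16 CPM with the largest ratios, and the 3 genes most like a member over libraries.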

Additional observations from a re-analysis of the deposited data

How the results depend on the processing

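Of 459 ratios of the 8 members under 20 alternatives, 274 stayed within the counting interval of the reported ratio, 179 moved beyond it and 6 changed sign although the counting interval of the reported log2 ratio did not hold 0, as for 18 of the 24 reported ratios. The other 6 reported ratios had intervals that held 0, and their values changed sign in 23 cases, counted above by whether they stayed within the interval. Grb10, Ndn and Impact were lower in cycling cells, Procr+ cycling cells and lineage-marker cells under every alternative run, with ratios in cycling cells of -1.20 to -0.60, -1.07 to -0.42 and -1.30 to -0.78. The 3 alternatives that treat Procr-on lineage-marker cells differently or drop the neutrophil and primary-granule lists were added once the data were known.

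The 6 sign changes among the 18 ratios were those of Gnas in Procr+ cycling cells with class markers on at 100 CPM (0.37), Igf2r in cycling cells with 6 lineage genes required (-0.035) and without the 8 libraries high in erythroid and neutrophil counts (-0.56), Peg3 in lineage-marker cells with 6 lineage genes (-0.43) and when Procr-on cells never counted as lineage-marker cells (-0.98), and Igf2 in cycling cells without its top cell (-0.0054). For Peg3 the cell with most counts leaves the lineage-marker class in both and, having Procr on, joins the Procr+ non-cycling cells. How much of the Peg3 changes comes from this cell was not tested, nor were the causes of the other sign changes. The number of members whose counting interval of the log2 ratio lay wholly below 0 in Procr+ cycling cells went from 4 to 7 with 6 lineage genes. The same count over all genes was not made, so these numbers cannot be read as a trait of the members.

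Other imprinted genes past 2-fold numbered 0 in cycling cells, and 1 with class markers on at 100 CPM, with 3 or 6 lineage genes, and 3 with no filter on level. In lineage-marker cells they numbered 1, and 0 with markers on at any count, 18 cell cycle genes, 3 lineage genes, equal cell weights, thinning, a pseudocount of 5 CPM or without the library with most counts, 2 without the neutrophil and primary-granule lists, 3 at 100 CPM, with 6 lineage genes or with Procr-on cells never lineage-marker cells, and 4 with only Procr-low cells. In Procr+ cycling cells they numbered 1, and 0 with markers on at any count, 8 or 18 cell cycle genes, equal weights, thinning or either change of the lineage lists, and 4 with no filter. The causes were not tested. With equal cell weights no counting interval exists, so members lower were not counted there. No paired analysis was possible because the cells are not tied to samples or replicate numbers. Peg3, Plagl1 and Igf2 are limited by 884, 320 and 16 counts in all.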
